A study of Mus musculus with 8 samples.

Results

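The 10 genes described here encode transcription factors of the mouse trophectoderm lineage: Tead4, Cdx2, Gata3, Gata2, Tfap2a, Tfap2c, Klf5, Eomes, Elf5 and Ets2. They are a list of names chosen for their known role in this lineage, with earlier results of these data known, and each was read through the probe set annotated with that symbol alone. Each of the 10 had 1 such probe set, out of 16015 probe sets tested and 14860 genes with a symbol of their own. Signals were log2 values from 8 Affymetrix arrays, 4 of trophectoderm from dams on a high fat diet (Teklad 06414) and 4 from dams on a control diet (Lab Diet 5015). All dams were C57BL/6J females kept on their diet from weaning to 16 weeks of age and then mated to C57BL/6J males. Each array held RNA of the trophectoderm cut from the abembryonic pole of 5 blastocysts at embryonic day 4.5. The piece is therefore mural trophectoderm, the part away from the inner cell mass. The labels call the arrays biological replicates without saying which dams gave each pool, so the p-values here measure spread between pools, which may be technical in part.

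The trophectoderm, the outer cell layer of the blastocyst, gives rise to the placenta's trophoblast. In outer cells of the mouse embryo the Hippo pathway is inactive, YAP1 enters the nucleus and binds TEAD4, and this complex switches on Cdx2, with Gata3 acting downstream of TEAD4 in parallel to Cdx2. Eomes, Elf5, Ets2 and Tfap2c then maintain the trophoblast stem cells that lie next to the inner cell mass, while mural cells leave the stem cell state and become giant cells.

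DNA sequence upstream of annotated starts was available for 7 of the 10 genes, in 10 windows of 250 bases from RefSeq (build GRCm38.p6), and not for Tead4, Tfap2c and Klf5. The 4 windows printed here are those of Gata3, the factor that differed most between diets, of Cdx2, which defines the lineage, and those of Gata2 and Elf5 that hold the TEAD letters. Each reads 5′ to 3′ on the gene's strand up to the base before the start. Capitals mark the letters of a TEAD motif (CATTCC) or an AP-2 motif (GCCNNNGGC, which reads the same on both strands), each searched on both strands.
Gata3, chr2:9878601-9878850, minus strand: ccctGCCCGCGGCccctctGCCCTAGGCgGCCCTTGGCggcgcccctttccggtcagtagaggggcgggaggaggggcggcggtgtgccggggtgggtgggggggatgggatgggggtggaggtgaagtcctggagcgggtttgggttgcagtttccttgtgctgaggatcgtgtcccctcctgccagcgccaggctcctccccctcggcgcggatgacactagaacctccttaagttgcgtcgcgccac
Cdx2, chr5:147307250-147307499, minus strand: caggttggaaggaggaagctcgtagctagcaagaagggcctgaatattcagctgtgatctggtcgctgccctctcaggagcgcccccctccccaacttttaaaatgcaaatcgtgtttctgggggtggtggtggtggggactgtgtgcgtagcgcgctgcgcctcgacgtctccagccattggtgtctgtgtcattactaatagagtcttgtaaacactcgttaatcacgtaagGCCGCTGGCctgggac
Gata2, chr6:88198414-88198663, plus strand: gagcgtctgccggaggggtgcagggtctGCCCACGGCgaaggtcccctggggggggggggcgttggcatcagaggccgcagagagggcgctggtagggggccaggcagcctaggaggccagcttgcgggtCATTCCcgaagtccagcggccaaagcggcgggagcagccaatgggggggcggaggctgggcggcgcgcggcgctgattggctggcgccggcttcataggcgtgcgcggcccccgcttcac
Elf5, chr2:103411848-103412097, plus strand: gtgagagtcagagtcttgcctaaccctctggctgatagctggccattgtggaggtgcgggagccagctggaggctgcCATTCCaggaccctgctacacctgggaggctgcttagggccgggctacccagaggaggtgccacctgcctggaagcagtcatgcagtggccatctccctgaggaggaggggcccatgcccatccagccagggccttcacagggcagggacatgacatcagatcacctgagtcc
The AP-2 letters occurred 3 times in the Gata3 window and once each in those of Cdx2 and Gata2. Of all 32851 promoter windows from RefSeq, 13.7% held at least 1 match and 0.289% at least 3. The cut of 3 is the number in the Gata3 window itself, and these windows were not matched to it in GC content. The TEAD letters stood 120 to 115 bases before this start of Gata2 and 173 to 168 bases before this start of Elf5, and 12.6% of all windows held them. Neither the Gata3 nor the Cdx2 window held them. The KLF letters GGGNGGGG, not marked above, were present in 6 of the 10 windows of these genes against 30.8% of all windows, and in the Gata2 window they overlapped one another in a run of G. In the windows of these genes no match of one motif overlapped a match of another. No window of the 7 genes held the GATA letters AGATAA, the CDX letters TTTATNG, the ETS letters CCGGAAG or the T-box letters AGGTGNGA, which 9.99%, 9.81%, 6.91% and 4.66% of all windows held in that order. The windows of Gata3 and Gata2 had a GC content of 70.0% and 74.0%, against a median of 52.4% over all windows. A match describes letters and not a bound site.

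The files hold no detection call, so background was set on each array from 839 probe sets of olfactory, vomeronasal, trace amine and taste receptors, at their 95th percentile. It lay between 6.16 and 6.66 over the high fat diet arrays and between 5.88 and 6.14 over the control diet arrays. On all 8 arrays 7 factors lay above it, namely Tead4, Cdx2, Gata3, Gata2, Tfap2a, Klf5 and Eomes. Tfap2c did so on 7 arrays, Elf5 on 5 and Ets2 on 0. Signals over the whole table were higher on the high fat diet arrays, with a median log2 change of +0.22 over the probe sets tested. They also had fewer probe sets above background, 4698 to 6056 against 5927 to 6608 on the control diet arrays. High fat diet pool 3 had the lowest of these numbers. The part of this shift in the differences below was not tested, and each is given as measured unless said otherwise.

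None of the 10 factors passed the test between diets (limma, Benjamini-Hochberg over 16015 probe sets, threshold 0.05). The rate over all probe sets tested was 0.00624%. At an unadjusted limma p under 0.05, 0 factors read higher, against 30.1% of all probe sets, and 1 factor, Gata3, read lower, against 1.79%. These shares of the whole table depended on scaling, with 4826 probe sets higher and 286 lower as deposited. There were 1390 higher (8.68%) and 676 lower (4.22%) with each array centred on its median, 1599 (9.98%) and 482 (3.01%) after quantile normalization, and 656 (4.1%) and 832 (5.2%) after cyclic loess. With ordinary least squares in place of limma's moderated variance 0 factors passed, and 0 had an unadjusted p under 0.05. The diet groups lay apart on Gata3 in the lower direction, where 0.855% of all probe sets did so, and on Ets2 in the higher direction, where 25.4% did. The median log2 change of the 10 factors was +0.11. That is below the +0.22 of all probe sets, and 4 factors lay above that value and 6 below it. The sign of the factors' median was not stable, at -0.08 with each array centred on its median, +0.23 after quantile normalization and -0.04 after cyclic loess.

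**Figure D1:**
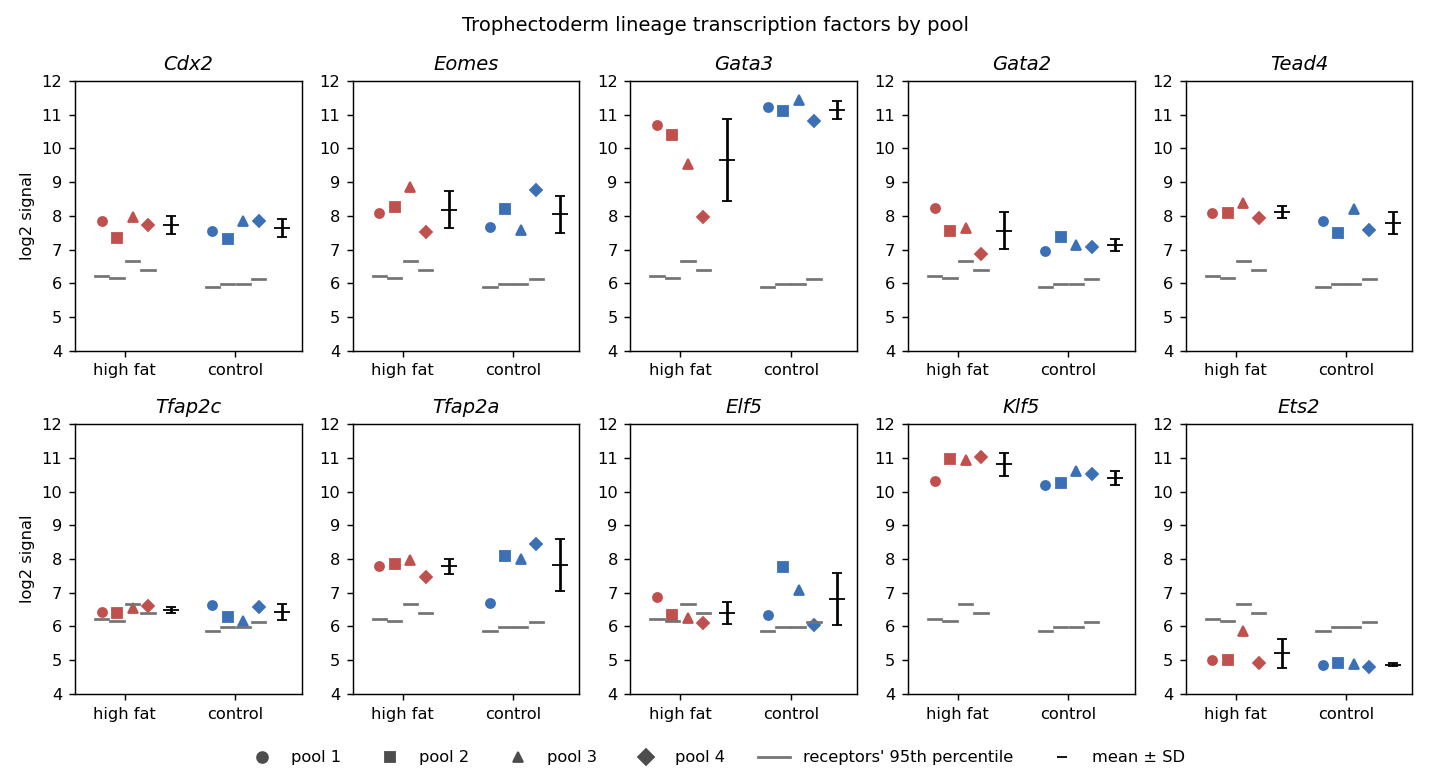
Log2 signal of each of the 10 transcription factors in every pool, high fat diet (red) left of control diet (blue), with the group mean ± SD (n = 4) in black and the receptors' 95th percentile of the same array as a grey dash. Gata3 in the high fat diet pools lay between 7.97 and 10.70, below every control diet pool, and Ets2 lay below the dash on all 8 arrays.

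Gata3, a zinc finger factor that promotes the trophectoderm and later the trophoblast giant cell programme, read at 10.70, 10.40, 9.53 and 7.97 in high fat diet pools 1 to 4, against 11.23, 11.11, 11.42 and 10.81 in control diet pools 1 to 4 (probe set 6884642). Every high fat diet pool was below every control diet pool, and the high fat diet pools lay over a range of 2.73, against 0.61 in the control diet pools. The means were 9.65 ± 1.22 and 11.14 ± 0.26 (SD, n = 4 each). The log2 change was -1.49 with an SE of 0.56 (95% interval -2.79 to -0.19), or 0.356 times the control diet signal, with a limma p of 0.0298 and an adjusted p of 0.132. High fat diet pool 4 carried much of the size. That pool was picked because it stood lowest. Without it the log2 change was -0.93, with a limma p of 0.0175 and an adjusted p of 0.184. The groups stayed apart, which was fixed in advance because every high fat diet pool lay below every control diet pool. In that setting 1.56% of all probe sets lay apart in the lower direction, and 1.75% read lower at an unadjusted limma p under 0.05. In bulk samples, fewer Gata3-expressing cells and less Gata3 RNA per cell cannot be told apart. With arrays centred on their medians the difference was -1.68, quantile normalization gave -1.33 and cyclic loess -1.32, and the groups lay apart in each of these, where 2.62%, 1.89% and 3.4% of all probe sets lay apart in the lower direction. The unadjusted limma p did not hold below 0.05 everywhere: it was 0.0564 after cyclic loess, and 0.0666 without high fat diet pool 3, 0.0601 without control diet pool 1, 0.0545 without control diet pool 2 and 0.0664 without control diet pool 3.

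Gata2, the paralog of Gata3 that acts with it on placental hormone genes, did not share this direction. It read at 8.22, 7.54, 7.63 and 6.86 in high fat diet pools 1 to 4, against 6.96, 7.38, 7.13 and 7.09 in the control diet pools. High fat diet pools 1 to 3 lay above all control diet pools and pool 4 below them all, so the groups overlapped. The log2 change was +0.43 with an SE of 0.27 (95% interval -0.20 to 1.05, limma adjusted p = 0.278), +0.66 without high fat diet pool 4 and +0.21 without high fat diet pool 1. Without pool 4, picked by its value, the groups lay apart, with a limma p of 0.0124 and an adjusted p of 0.184. In that setting 28.7% of all probe sets lay apart in the higher direction, and 23.4% read higher at an unadjusted limma p under 0.05. A test of Gata3 against Gata2 was not made.

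Tead4, the DNA-binding partner of YAP1 at the top of the lineage, read at 8.08, 8.08, 8.37 and 7.94 in the high fat diet pools, against 7.86, 7.50, 8.21 and 7.58 in the control diet pools. The groups overlapped because control diet pool 3 lay above 3 of the 4 high fat diet pools. The log2 change was +0.33 with an SE of 0.18 (95% interval -0.08 to 0.74, limma adjusted p = 0.218). It was +0.15 with median centring, +0.63 with quantile normalization and +0.20 with cyclic loess.

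Cdx2, the caudal-type homeobox factor that represses the pluripotency programme in outer cells, read at 7.84, 7.34, 7.95 and 7.74 in the high fat diet pools, against 7.55, 7.32, 7.86 and 7.84 in the control diet pools. Pool 2 was the lowest in both diets, and the ranges almost coincided. The log2 change was +0.08 with an SE of 0.18 (95% interval -0.33 to 0.49, limma adjusted p = 0.755). Its spread within diets was small for its level, with 15.4% of the 500 probe sets nearest in mean showing a smaller one.

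Klf5, a Krüppel-like factor needed for trophectoderm formation, read at 10.31, 10.98, 10.93 and 11.03 in the high fat diet pools, against 10.19, 10.26, 10.62 and 10.52 in the control diet pools. High fat diet pools 2 to 4 lay above every control diet pool, and pool 1 lay among them. The log2 change was +0.41 with an SE of 0.19 (95% interval -0.02 to 0.85), and the limma adjusted p was 0.17. Without high fat diet pool 1, also picked by its value, it was +0.58 with the groups apart, a limma p of 0.0034 and an adjusted p of 0.148. In that setting 30% of all probe sets lay apart in the higher direction, and 27% read higher at an unadjusted limma p under 0.05. Among the 500 probe sets nearest in mean, 4.2% had a smaller spread within diets. Klf5 read higher under each of the 4 scalings, by +0.23 to +0.61.

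Tfap2a and Tfap2c encode AP-2 factors, and Tfap2c is the one that controls epithelial polarity and tight junction genes in the early mouse embryo. Tfap2a read at 7.80, 7.87, 7.98 and 7.47 in the high fat diet pools, against 6.71, 8.10, 8.02 and 8.45 in the control diet pools. Control diet pool 1 stood below all other pools, and the log2 change was -0.04 with an SE of 0.36 (limma adjusted p = 0.943). That pool was picked because it stood low. Without it the log2 change was -0.41 with the groups apart, a limma p of 0.0440 and an adjusted p of 0.254. In that setting 1.31% of all probe sets lay apart in the lower direction, and 1.65% read lower at an unadjusted limma p under 0.05. Tfap2c read at 6.42, 6.40, 6.56 and 6.60 in the high fat diet pools, against 6.65, 6.30, 6.16 and 6.59 in the control diet pools, a log2 change of +0.07 with an SE of 0.13 (limma adjusted p = 0.71). These Tfap2c signals were close to background, exceeding it on 3 high fat diet arrays and 4 control diet arrays, and exceeding the receptors' 99th percentile on 0 and 1.

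Eomes, a T-box factor of trophoblast stem cells, read at 8.08, 8.26, 8.85 and 7.53 in the high fat diet pools, against 7.66, 8.19, 7.57 and 8.76 in the control diet pools. Pools of the same diet differed by up to 1.32 and 1.19 log2 units, far more than the means did (log2 change +0.14, SE 0.35, limma adjusted p = 0.79).

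Elf5, an ETS factor that reinforces Cdx2 and Eomes in trophoblast stem cells, read at 6.88, 6.35, 6.24 and 6.12 in the high fat diet pools, against 6.35, 7.76, 7.09 and 6.05 in the control diet pools. Only 2 of 4 high fat diet and 3 of 4 control diet arrays were above background. Control diet pools 2 and 3 gave the high values, and the groups overlapped (log2 change -0.42, SE 0.38, limma adjusted p = 0.439). It was -0.099 without control diet pool 2, -0.67 without control diet pool 4 and -0.72 after cyclic loess. The spread within diets was wide for this level, with 84.2% of the 500 nearest probe sets showing a smaller one.

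Ets2, another ETS factor of trophoblast, was below background on all 8 arrays, at 5.01, 5.02, 5.86 and 4.93 in the high fat diet pools and at 4.87, 4.90, 4.88 and 4.81 in the control diet pools. The groups did not overlap, yet no level or fold is read from a signal in this range, and 25.4% of all probe sets lay apart the same way. The Ets2 groups overlapped with median centring, quantile normalization and cyclic loess, where 7.07%, 8.94% and 3.35% of all probe sets lay apart in the higher direction.

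**Figure D2:**
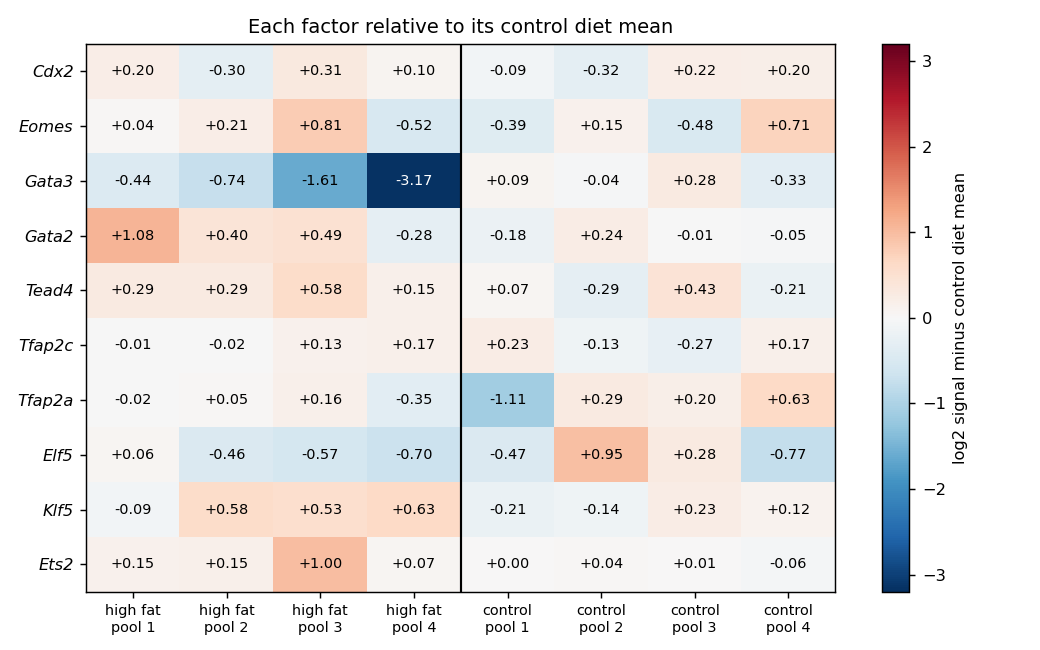
Log2 signal of each factor (rows) in each pool (columns, high fat diet left of control diet) minus the mean of that factor over the 4 control diet pools. The darkest cell is Gata3 in high fat diet pool 4, at -3.17, and no other factor departs as far from its control diet mean.

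Among the high fat diet arrays, pool 4 had the lowest signal for 7 of the 10 factors (Gata3, Gata2, Tead4, Eomes, Tfap2a, Elf5 and Ets2), while 20.8% of all probe sets tested were lowest there; this count was made after the values were seen. The same pool had the highest signal of Klf5 and Tfap2c. Pool 3 had the highest signal for 5 factors (Cdx2, Eomes, Tead4, Tfap2a and Ets2), where 56.7% of all probe sets were also highest. Among the control diet arrays no pool was lowest for more than 3 factors. The mean log2 signal over the 10 factors ran from 7.42 to 7.99 in the high fat diet pools and from 7.60 to 7.90 in the control diet pools, and the means of the diets differed by -0.02. Of the 10 factors, 5 had the larger SD in the high fat diet, as did 66.9% of all probe sets tested.

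**Figure D3:**
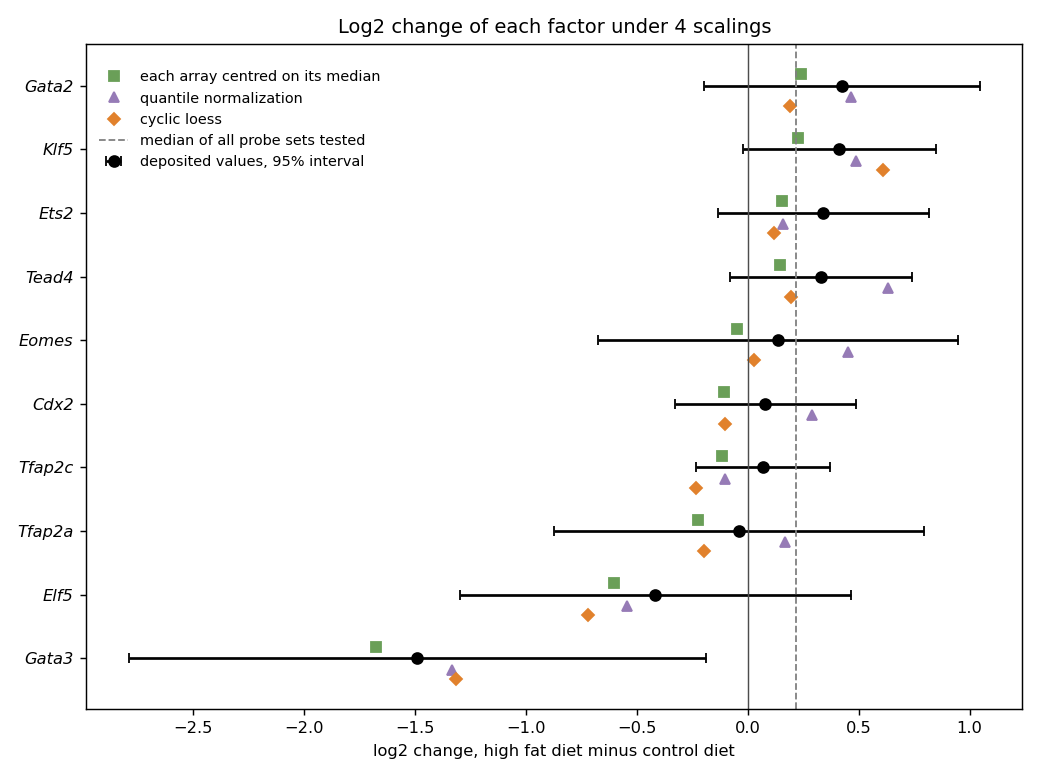
Log2 change of each factor, high fat diet minus control diet, with its 95% interval on the deposited values (black) and its value after 3 other scalings between arrays (coloured symbols); the dashed line is the median of all probe sets tested, +0.22. Gata3 and Elf5 stay left of 0 under all 4 scalings, Gata2, Klf5, Tead4 and the below-background Ets2 stay right of it, and Cdx2, Eomes, Tfap2a and Tfap2c change sides.

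The genes whose pattern over the 8 arrays was most like that of Gata3 were Nid1, Ubl3 and Ift20. Likeness was the root mean square difference of log2 signals, each gene centred on its own mean, among 3688 genes above background on all 8 arrays. It was 0.48 for Nid1, a basement membrane linker, 0.50 for Ubl3, a ubiquitin-like protein, and 0.53 for Ift20, a subunit of the intraflagellar transport complex, against a median of 1.24 over the candidates. Nid1 read at 8.39, 8.51, 7.74 and 6.82 in high fat diet pools 1 to 4, against 9.42, 8.76, 8.91 and 8.05 in control diet pools 1 to 4.

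The inputs to these factors were read from 12 of 14 listed genes of the Hippo and Notch pathways. None passed the test, 2 read higher at an unadjusted limma p under 0.05 (Tead3 and Notch2) and 0 lower, and the median log2 change was +0.23, or -0.05 after cyclic loess, where neither had a p under 0.05. Of all probe sets, 30.1% read higher and 1.79% lower at that p, and 4.1% read higher after cyclic loess. Yap1, the coactivator of TEAD4, read at 6.31, 6.25, 6.91 and 6.64 in the high fat diet pools, against 5.98, 6.57, 6.14 and 6.89 in the control diet pools, with overlapping groups (log2 change +0.13, below 0 under the 3 other scalings). Its partner paralog Wwtr1 read at 7.47, 7.01, 7.44 and 8.60 in the high fat diet pools, against 7.11, 6.92, 6.71 and 7.06 in the control diet pools (limma adjusted p = 0.181). High fat diet pool 4, which had the lowest Gata3, had the highest Wwtr1, a pairing chosen after the values were seen. High fat diet pool 1, with the highest Gata3 of that diet (10.70), had the next highest Wwtr1 (7.47). A relation between the 2 genes was not tested. Tead3 differed by +0.56 with an SE of 0.19 (limma adjusted p = 0.121), while the receptors Notch2 (+0.37) and Notch1 (+0.29) were above background on 0 of 8 arrays.

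Of 20 further transcription factors of early trophoblast 19 were measured. None passed the test, 11 read higher and 0 lower at an unadjusted limma p under 0.05, where 30.1% of all probe sets read higher, and the median log2 change was +0.35. With median centring 7 did so (8.68% of all probe sets), with quantile normalization 7 (9.98%) and with cyclic loess 4 (4.1%). Hand1, the basic helix-loop-helix factor that drives giant cell formation, read at 6.40, 6.57, 6.79 and 6.66 in the high fat diet pools, against 5.93, 6.33, 6.05 and 6.41 in the control diet pools. The groups touched at high fat diet pool 1 and control diet pool 4 (log2 change +0.42, SE 0.14, limma adjusted p = 0.121). Tfeb, which is needed for placental vascularisation, differed by +0.46 (SE 0.09) and Dlx5, a homeobox factor, by +0.58 (SE 0.14), with a limma adjusted p of 0.115 for both. Msx2 (+0.56) and Esrrb (+0.35) were above background on 0 of 8 arrays. Ascl2, which keeps trophoblast progenitors of the spongiotrophoblast, was above it on 2 and differed by +0.37.

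Among 16 measured of 20 listed genes expressed in trophectoderm, none passed, and the median log2 change was +0.13, or -0.06 with median centring. At an unadjusted limma p under 0.05, 1 read lower, against 1.79% of all probe sets, and 0 higher, against 30.1%. Under each of the other 3 scalings 2 read lower and 0 higher. With median centring, quantile normalization and cyclic loess, 4.22%, 3.01% and 5.2% of all probe sets read lower, and 8.68%, 9.98% and 4.1% higher. On the deposited values the 1 was Fgfr2, the receptor through which trophoblast stem cells respond to fibroblast growth factor. It read at 8.11, 7.13, 7.65 and 6.74 in the high fat diet pools, against 9.94, 9.31, 9.68 and 7.81 in the control diet pools (log2 change -1.78, SE 0.50, limma adjusted p = 0.115). The groups overlapped because control diet pool 4 lay below high fat diet pool 1. Cldn4, a claudin of the tight junctions, read at 10.04, 13.21, 10.83 and 9.30 in the high fat diet pools, against 12.68, 12.25, 12.69 and 12.18 in the control diet pools. High fat diet pool 2 was the highest of all, the other 3 high fat diet pools were the lowest, and the limma adjusted p was 0.184. Cdh1, the epithelial cadherin, differed by -0.71 with an SE of 0.35 (limma adjusted p = 0.194), and Bmp4 (+0.34) was above background on 0 arrays. Krt18, the keratin by which trophectoderm is known, lay above background on all 8 arrays, at 12.45 to 12.89 in the high fat diet pools and 11.40 to 12.84 in the control diet pools.

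Family paralogs were measured for 31 of 34 listed genes. None passed, 14 read higher (30.1% of all probe sets did) and 0 lower at an unadjusted limma p under 0.05, 11 of the 31 were above background on no array, and the median log2 change was +0.29. With median centring 7 read higher and 2 lower, with quantile normalization 8 and 1, and with cyclic loess 4 and 1, beside 8.68%, 9.98% and 4.1% of all probe sets higher. The lower shares of all probe sets were 4.22%, 3.01% and 5.2% in that order. Klf2, a relative of Klf5, read at 7.10, 7.39, 7.20 and 7.49 in the high fat diet pools, against 6.58, 6.72, 6.72 and 6.62 in the control diet pools, with the groups apart (log2 change +0.64, SE 0.10, limma adjusted p = 0.115). Tbx21, a T-box relative of Eomes known from T cells, differed by +0.46, and the GATA factors of the primitive endoderm, Gata4 and Gata6, by +0.25 and +0.31. Gata4 differed by -0.05 after cyclic loess. Tfap2d (+0.46) and Erg (+0.43) were above background on 0 arrays. Elf3, an epithelial ETS factor chosen after its values were seen, read at 8.03, 7.61, 7.95 and 7.31 in the high fat diet pools, against 7.66, 10.16, 8.20 and 9.64 in the control diet pools (log2 change -1.19, SE 0.55, limma adjusted p = 0.173). Control diet pools 2 and 4 gave the high values.

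**Figure D4:**
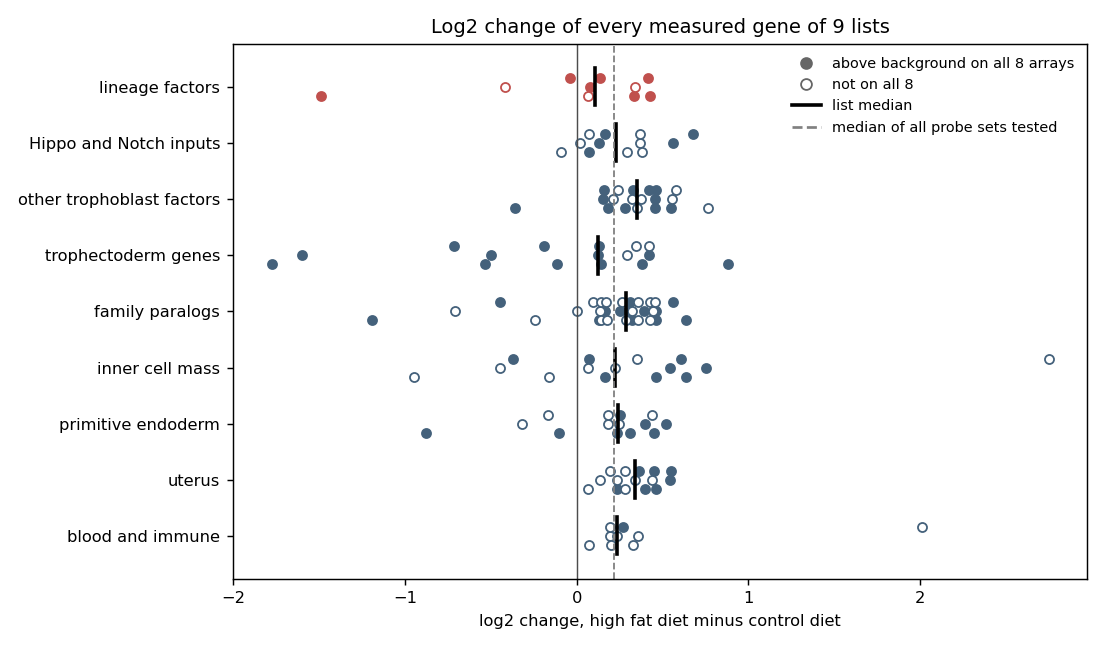
Log2 change, high fat diet minus control diet, of every measured gene in the list of lineage factors (red) and 8 other lists (blue), filled where the gene lay above background on all 8 arrays and open where it did not. Black bars are list medians, from +0.11 for the lineage factors to +0.35 for other trophoblast factors, and the dashed line is the median of all probe sets tested, +0.22.

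Markers of other cells that a dissected piece could hold were read in the same pools. The inner cell mass markers (15 of 16 measured) had a mean log2 signal of 6.88 to 7.52 in the high fat diet pools and 6.46 to 7.51 in the control diet pools, with 4 reading higher and 0 lower at an unadjusted limma p under 0.05 and a median log2 change of +0.22 (2 higher after cyclic loess). Of all probe sets, 30.1% read higher and 1.79% lower at that p, and 4.1% read higher after cyclic loess. Pou5f1 lay above background on all 8 arrays, at 8.15 to 9.66 in the high fat diet pools and 7.02 to 11.72 in the control diet pools. Nanog did so on 7 arrays and Sox2 on 0. The highest Pou5f1 and the highest Elf5 were both in control diet pool 2, a pairing chosen after the values were seen. Other pools did not follow it. Control diet pool 3 had the lowest Pou5f1 (7.02) with Elf5 at 7.09, and control diet pool 4 had Pou5f1 at 9.20 with the lowest Elf5 (6.05). A relation between the 2 genes was not tested. The 4 that read higher were Klf2, Esrrb, Fgf4 and Klf4, with Esrrb above background on 0 arrays. Fgf4 differed by +0.75 (limma adjusted p = 0.115) and was above background on all 8 arrays. Its groups lay apart, where 25.4% of all probe sets did so in the higher direction. Other single markers, chosen after their values were seen, stood apart by pool. Utf1 read at 11.38, 5.64, 11.52 and 5.85 in high fat diet pools 1 to 4 and at 5.32 to 6.29 in the control diet pools (log2 change +2.75, limma adjusted p = 0.221). Tdgf1 read at 5.02 to 5.45 in the high fat diet pools, and at 10.33 in control diet pool 2 with at most 4.92 in the other control diet pools. For primitive endoderm (14 of 17 measured) the mean signal was 6.81 to 7.13 in the high fat diet pools and 6.69 to 6.90 in the control diet pools, with 6 reading higher, 1 lower and a median of +0.24 (2 higher and -0.04 after cyclic loess). For these markers too, the shares of all probe sets were those given above. Gata4 and Gata6 were above background on all 8 arrays and Sox17 on 3, and Col4a1 and Hnf4a had the smallest p in this list (+0.45 and +0.44), with Hnf4a above background on 3 arrays. The 1 that read lower was Lamb1, a laminin chain above background on all 8 arrays (-0.88, limma adjusted p = 0.144), and Dab2 (-0.10), Lama1 (-0.17) and Sparc (-0.32) also lay below 0; these 4 were chosen after their values were seen.

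For uterine tissue (15 of 15 measured) the mean signal was 5.91 to 6.32 in the high fat diet pools and 5.63 to 5.80 in the control diet pools, with 10 reading higher, against 30.1% of all probe sets, 0 lower and a median of +0.34. Msx1 (+0.54) and Col1a1 (+0.55) had the smallest p there, and both were above background on all 8 arrays. Of the 15 markers, 7 were above background on all 8 arrays. The other 8, including the defining markers Pgr and Ltf, were so on 0. The uterine count was 4 with median centring (8.68% of all probe sets), 4 with quantile normalization (9.98%) and 2 with cyclic loess (4.1%). For blood and immune cells (9 of 14 measured) the mean signal was 5.17 to 5.68 in the high fat diet pools and 4.83 to 5.01 in the control diet pools, with 4 reading higher, 0 lower and a median of +0.23, and 0 to 1 reading higher under the other 3 scalings. Of all probe sets, 30.1% read higher as deposited, and 8.68%, 9.98% and 4.1% under those scalings. Cd74 (+0.36) and Cx3cr1 (+0.27, or -0.03 after cyclic loess) had the smallest p. Above background on all 8 arrays was 1 marker, Cx3cr1, and 7 were so on 0 arrays, Cd74 and Ptprc among them. S100a9, a neutrophil calcium-binding protein chosen after its values were seen, read at 6.85, 10.88, 5.57 and 5.25 in high fat diet pools 1 to 4 and at 4.67 to 5.46 in the control diet pools. High fat diet pool 2 stood far above the rest, and the limma adjusted p was 0.248. None of these markers passed the test, with limma adjusted p-values of 0.115 or more. The part of these markers in the values of the lineage factors was not tested.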

How the data were processed

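Expression was measured on 8 Affymetrix arrays, each from 5 pooled blastocysts. RNA (PicoPure), per the labels' protocols, was copied to cDNA and amplified in 2 rounds, first by Ovation PICO WTA and then by TransPlex WTA, which can widen the spread between small samples. The authors deposited log2 values for 23332 probe sets, and per the submitters' processing notes the tools were RMA and Partek. Their versions and the genome build were not given in the sources used here. All 8 columns were matched to samples by their labels. The platform annotation gave 14996 probe sets 1 symbol, 1019 several and 7317 none here; symbols were updated by gene ID through RefSeq (14941 found). The test was limma (version 3.58.1, R version 4.3.3) over the 16015 named probe sets (lmFit, eBayes, two-sided, Benjamini-Hochberg). The probe set with the highest mean stood for a gene. The fit was also run on simulated arrays with independent noise and no shift between diets over the whole table. That run cannot show how the fit behaves under the shift seen here.

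The 10 factors, the gene lists and the rule for named genes were chosen with earlier results of these data known. That rule named all factors, up to 4 genes with the smallest limma p from each related list and up to 2 from each marker list, a few genes set by name (such as Yap1, Hand1, Krt18 and Pou5f1), and the 3 genes most like the factor with the smallest p. The lists were Hippo and Notch inputs, other trophoblast factors, trophectoderm genes, family paralogs, and markers of inner cell mass, primitive endoderm, uterus and blood; Tead1, Tead2, Tead3, Esrrb, Klf2, Klf4, Gata4, Gata6 and Foxa2 each stand in 2 of them. Alternatives changed the scaling between arrays, the probe sets tested, the variance model, the replicate block and the background percentile, and left out each array. The number of arrays limits the precision.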

Additional observations from a re-analysis of the deposited data

Results flagged for a closer look

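Dixon's ratio was taken in 96 groups of 4 pools, over the 48 genes that the rule above named. Genes added after their values were seen, such as Tdgf1, Utf1 and S100a9, were not included. In 7 of the 96 groups 1 pool stood far from the other 3 at the 95% level, a rate at which chance alone flags about 1 group in 20. Among the lineage factors these were Klf5, at 10.31 in high fat diet pool 1 against 10.93 in the nearest pool, and Ets2, at 5.86 in high fat diet pool 3 against 5.02, below background. Gata3, whose high fat diet pools lay over the wider range, had no such pool. The others were Tead3 in control diet pool 3 (6.71, lowest), Msx2 in high fat diet pool 1 (5.50, lowest) and in control diet pool 1 (5.41, highest), Col1a1 in high fat diet pool 3 (8.23, highest) and Gata4 in high fat diet pool 4 (6.77, lowest).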

How the results depend on the processing

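None of the factors passed under the 17 alternatives, of which the filter on dim probe sets tested 9 of the 10 and left out Ets2, and Gata3 stayed lower in all of them, with log2 changes from -1.84 to -0.93 and limma adjusted p-values from 0.105 to 0.535. Gata2, Tead4, Klf5 and Elf5 also kept their direction, as did Ets2, whose signal was below background. Cdx2 reversed with median centring (-0.11), cyclic loess (-0.10) and an array left out (-0.027 to 0.21), Eomes with median centring (-0.051) and an array left out (-0.088 to 0.37), Tfap2c with median centring (-0.12), quantile normalization (-0.10), cyclic loess (-0.23) and an array left out (-0.020 to 0.14), and Tfap2a with quantile normalization (+0.17) and an array left out (-0.41 to +0.17). The number of factors at an unadjusted p under 0.05, 1 in the main comparison, was 0 with cyclic loess, 0 without variance moderation and 0 to 2 with an array left out. It was 0 without high fat diet pool 3 and without control diet pool 2. With an array left out, 17.9% to 33.8% of all probe sets read higher at that p and 1.15% to 2.37% lower. The number whose groups lay apart was 2 in the main comparison, where 26.3% of all probe sets lay apart in either direction. It was 1 after median centring, quantile normalization and cyclic loess, where 9.69%, 10.8% and 6.76% of all probe sets did so. With the filter on dim probe sets, which removed Ets2, it was 1, against 24% of the probe sets kept. With an array left out it was 2 to 3, against 27.4% to 37.6% of all probe sets. Above the receptors' 99th percentile on at least 4 arrays were 7 factors, against 9 for the 95th. With the replicate number as a block, 3 factors had an unadjusted p under 0.05 (Gata3 lower, Klf5 and Tead4 higher), each with an adjusted p of 0.202, where 22.3% of all probe sets read higher and 2.09% lower. The deviations of same-numbered arrays had an r of -0.02 to 0.08, and 1 of 4 pools correlated best with its own number, so the numbers were not treated as pairs; the labels do not say what a number stands for. Averaging probe sets of a gene was not run, since each factor had 1. The cause of these shifts was not tested.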
